A study of Mus musculus with 48 samples.

Results

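Liver RNA of mice with a knockout (KO) of Bmal1 in adipocytes was compared between 2 times of day on opposite sides of the cycle, ZT8 and ZT20. ZT, zeitgeber time, counts hours from the time lights would come on, so that ZT8 falls in the usual light phase and ZT20 in the usual dark phase. Members were the columns labelled ZT8-KO (4 mice) and ZT20-KO (4 mice), 8 of the 48 liver libraries of the series. The other libraries are KO mice of the other 4 times and WT mice of all 6 times, of which the 4 WT mice at ZT8 and the 4 at ZT20 served as a second comparison. All mice were female C57BL/6J. Each had been fasted for 24 h and held in darkness for 1 day when the liver was taken, so these conditions are shared by the groups compared. The labels name neither the Cre driver nor the allele of the knockout, and do not say whether the deletion reached any cell other than adipocytes. Because liver is not the targeted tissue, the level of Arntl, the gene symbol of Bmal1, does not check the genotype labels here.

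The circadian clock is a feedback loop of transcription. The activators ARNTL (BMAL1) and CLOCK or NPAS2 bind E-box sequences and switch on the Per and Cry genes, whose proteins then block the activators. A second loop is formed by the REV-ERB receptors (Nr1d1, Nr1d2), which repress Arntl through RORE sequences that the ROR receptors also bind. A further arm, DBP, TEF and HLF against NFIL3, acts through D-box sequences. In liver the clock and feeding time together set daily rhythms of glucose, lipid, bile acid and drug metabolism.

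Stretches of promoter are shown for 5 clock genes that differed between ZT8 and ZT20 and that carry such a sequence close to the start of the gene. The sequences are from RefSeq, build GRCm38.p6, and run 5′ to 3′ on the strand of the gene from 250 bases before its annotated start to 50 bases after it. Capitals mark a match on either strand to an E-box (CACGTG), E′-box (CACGTT), D-box (TTATGTAA or TTACGTAA) or RORE (TAGGTCA or TAGGTTA). A match is a stretch of letters and does not show that a factor binds there. Arntl (chr7:113207261-113207560, plus strand) and Nfil3 (chr13:52980990-52981289, minus strand), both lower at ZT8, hold RORE letters. Per3 (chr4:151044616-151044915, minus strand), higher at ZT8, holds 2 D-box matches. Tef (chr15:81811164-81811463, plus strand), higher at ZT8, and Cry1 (chr10:85185005-85185304, minus strand), lower at ZT8, hold E-boxes.
Arntl: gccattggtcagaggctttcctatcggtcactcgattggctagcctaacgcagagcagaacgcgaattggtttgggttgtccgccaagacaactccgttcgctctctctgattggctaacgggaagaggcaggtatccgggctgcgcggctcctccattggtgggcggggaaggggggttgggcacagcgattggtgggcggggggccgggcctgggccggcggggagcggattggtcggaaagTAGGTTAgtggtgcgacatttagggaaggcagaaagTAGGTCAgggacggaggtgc
Nfil3: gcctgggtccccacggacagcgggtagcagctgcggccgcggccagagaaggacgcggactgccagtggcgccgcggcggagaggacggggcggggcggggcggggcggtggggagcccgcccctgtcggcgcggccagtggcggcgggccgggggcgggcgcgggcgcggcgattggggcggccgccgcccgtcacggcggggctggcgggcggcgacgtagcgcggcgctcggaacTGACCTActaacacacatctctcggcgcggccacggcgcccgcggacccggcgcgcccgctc
Per3: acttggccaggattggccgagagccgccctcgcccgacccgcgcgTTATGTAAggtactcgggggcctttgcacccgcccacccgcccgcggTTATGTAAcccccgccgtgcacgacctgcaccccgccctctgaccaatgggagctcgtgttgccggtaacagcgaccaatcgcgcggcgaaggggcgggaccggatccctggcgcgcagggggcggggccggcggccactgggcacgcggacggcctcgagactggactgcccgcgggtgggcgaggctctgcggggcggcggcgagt
Tef: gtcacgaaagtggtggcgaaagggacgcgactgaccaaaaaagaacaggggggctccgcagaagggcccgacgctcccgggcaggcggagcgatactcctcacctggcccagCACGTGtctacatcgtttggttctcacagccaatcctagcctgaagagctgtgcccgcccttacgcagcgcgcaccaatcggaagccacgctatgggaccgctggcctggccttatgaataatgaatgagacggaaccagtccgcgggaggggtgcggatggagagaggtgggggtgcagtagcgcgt
Cry1: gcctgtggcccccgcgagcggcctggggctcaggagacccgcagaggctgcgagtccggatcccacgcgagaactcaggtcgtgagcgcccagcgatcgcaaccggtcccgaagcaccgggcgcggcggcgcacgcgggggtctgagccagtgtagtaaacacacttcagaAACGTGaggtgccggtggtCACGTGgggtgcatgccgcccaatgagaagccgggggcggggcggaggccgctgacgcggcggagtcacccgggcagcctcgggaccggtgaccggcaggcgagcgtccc

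Of 20 clock genes looked for, 17 had a promoter in the RefSeq table. RORE letters occurred in 2 of the 4 genes that were lower at ZT8 and had a promoter (Arntl and Nfil3) and in 0 of the 6 that were higher, against 4.61% of all 27025 genes in the table. D-box letters occurred in Per3 alone of the 6 higher genes and in 0 of the 4 lower ones, against 1.23% of all genes. E-boxes occurred in 2 of the 6 higher genes (Tef and Bhlhe41), in 1 of the 4 lower ones (Cry1) and in 2 of the 6 that did not pass (Per1 and Gm129), against 8.09% of all genes. E′-boxes occurred in Nr1d1, Cry1 and Cry2, 1 gene of each kind, and in the untested Rorb, against 5.44% of all genes. RORE and D-box letters occurred in 0 of the 6 genes that did not pass. Where none of these letters was found, as in the promoters of Dbp and Nr1d2, that says only that they are not in this window.

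Levels are given as CPM, counts scaled to a common library size. A difference is the log2 ratio of ZT8 to ZT20 with an approximate standard error (SE), so that a positive value means higher at ZT8. Genes were tested with edgeR's quasi-likelihood test, Benjamini-Hochberg adjustment ran over 13646 genes, and an adjusted p under 0.05 is called past the threshold. The SE was worked back from this test, as the size of the difference divided by the square root of the test's F value. The 8 libraries held 12.87e6 to 12.98e6 counts without Alb, the serum albumin gene, which was left out because its deposited values are not plain counts. Beyond the age and body weight of each mouse, nothing in the labels says more of the replicates than that they are separate mice. The defining markers of liver were present. The 8 hepatocyte genes measured summed to 28800 to 36900 CPM in the ZT8 mice and 31400 to 34900 in the ZT20 mice, with none at 0.

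The mice of the 2 times differed in more than the time of collection. The ZT8 mice weighed 25.5, 34.5, 26 and 25.8 g (mice 1 to 4) and the ZT20 mice 19.2, 21.9, 20.4 and 19.1 g, with no overlap. The mean weights were 28 ± 4.37 and 20.2 ± 1.31 g (SD, n = 4), a difference of 7.8 g (exact permutation test, two-sided p = 0.0286, the smallest that 4 against 4 allows). The WT mice weighed 21.6 to 23.1 g at ZT8 and 18.7 to 22 g at ZT20, ranges that overlap. The KO mice at ZT8 were 80.75, 58.5, 50.25 and 51 weeks old and those at ZT20 were 62.5, 38, 39.25 and 28.75 weeks (difference of means 18 weeks, exact permutation test, two-sided p = 0.143). Without ZT20 mouse 1 the age difference was 24.8 weeks (exact permutation test, p = 0.0286). The WT mice at ZT8 and ZT20 had the same ages as the KO mice of the same number, so the WT groups held the same age gap. Within the 8 KO mice, body weight and time of day cannot be told apart.

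The library of ZT20 mouse 1 stood apart. In ZT20 mouse 1 the 10 neutrophil markers summed to 600 CPM, against 9.26 to 15.7 in the other ZT20 mice and 4.82 to 16.8 in the ZT8 mice. Its 18 acute phase genes, most of which encode plasma proteins that the liver makes in inflammation, summed to 48800 CPM, against 27200 to 29700 and 20400 to 23200. Abundance also followed GC content more steeply in it, with a slope of 0.64 log2 units per 10 points of GC content against -0.43 to 0.33 in the other ZT20 mice and -0.39 to -0.13 in the ZT8 mice. Results that rest on this library are given with and without it where such a fit was run.

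Past the threshold were 298 genes, 2.18% of those tested, with 136 higher at ZT8 (0.997%) and 162 lower (1.19%). At least a 2-fold difference was seen in 74 of the higher and 106 of the lower genes, and the median size over the 298 was 1.15 on the log2 scale. In 261 of them (87.6%) the 4 ZT8 mice and the 4 ZT20 mice did not overlap, against 1543 of all tested genes (11.3%, of which 5.69% had ZT8 above ZT20 and 5.62% below). The 298 were called on their difference in the same mice, so their higher share is no separate support. The count of genes past the threshold depended on the libraries used. It was 65 without ZT20 mouse 1, 90 without ZT8 mouse 3, 122 without ZT20 mouse 4, 143 without ZT8 mouse 4, 160 without ZT8 mouse 1, 192 without ZT8 mouse 2 or ZT20 mouse 3, and 376 without ZT20 mouse 2. Past the threshold in every one of these 8 fits were 51 of the 298 genes. With body weight in the model 85 genes passed, of which 60 were among the 298.

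**Figure D1:**
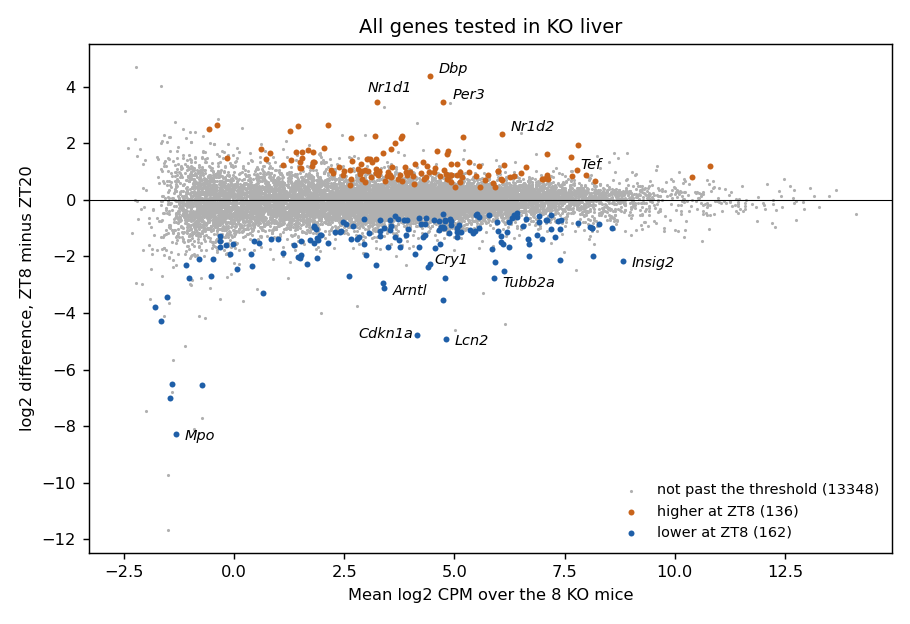
Each point is 1 of 13646 tested genes, with its mean log2 CPM over the 8 KO mice on the horizontal axis and the log2 difference of ZT8 minus ZT20 on the vertical axis. Orange points are the 136 genes higher at ZT8, led by Dbp at 4.37, and blue points the 162 lower ones; points at the far lower left are genes with almost no counts outside 1 library, such as Mpo.

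Clock genes differed between ZT8 and ZT20 in both directions. Of 20 listed, 19 could be tested (Rorb could not), 6 were higher at ZT8, 5 were lower, and 8 did not pass, so that 11 of 19 were past the threshold against 2.18% of all genes. The 4 KO mice of each time did not overlap for 12 of the 19. Of the 11 calls, 8 held with body weight in the model. Npas2, Bhlhe41 and Nr1d1 were lost, with differences of -1.74, 2.23 and 3.57 in that model. In each of the 8 fits without 1 library 6 were kept, namely Arntl, Per3, Cry1, Nr1d2, Dbp and Tef. The members of this list were known rhythmic genes, and the list was chosen with that in view.

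**Figure D2:**
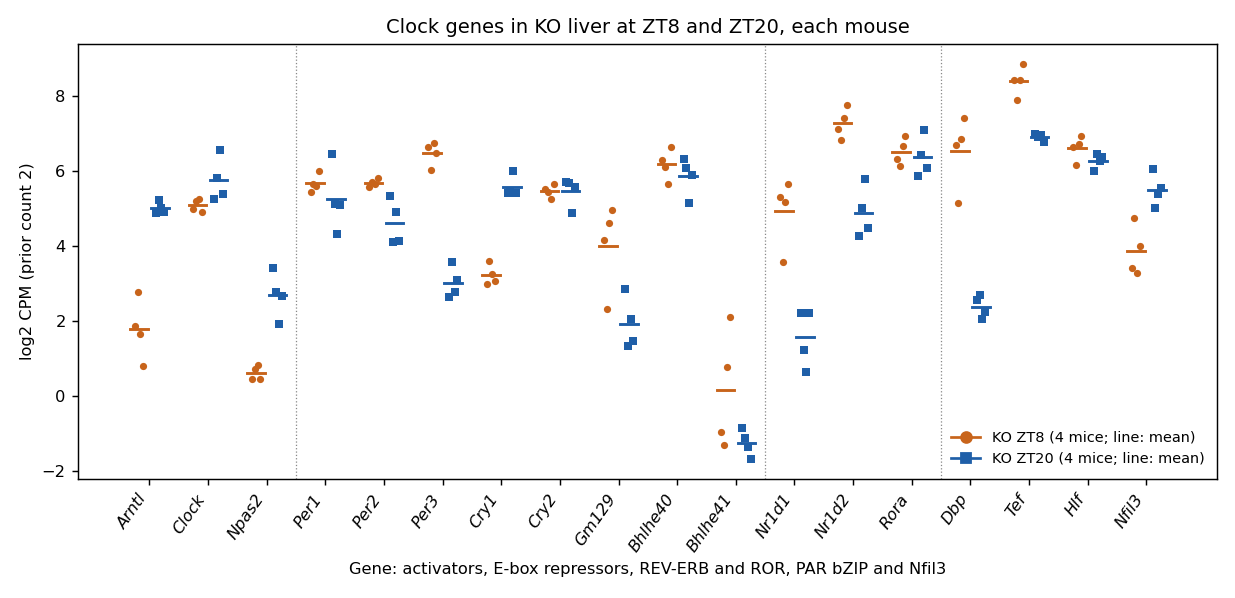
Levels of clock genes in each KO mouse, as log2 CPM with a prior count of 2; orange circles are the 4 ZT8 mice, blue squares the 4 ZT20 mice, lines the means, and dotted lines part the activators, the E-box repressors, the receptors and the D-box factors. Arntl, Npas2 and Cry1 are lower in every ZT8 mouse than in any ZT20 mouse, and Per3, Dbp, Nr1d2 and Tef are higher.

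Among the activators, Arntl and Npas2 were lower at ZT8. Arntl, on mm9 chromosome 7 between 120350979 and 120457636, stood at 3.48, 6.64, 3.0 and 1.57 CPM in the ZT8 mice and at 29.3, 37, 32.2 and 30 CPM in the ZT20 mice. All 4 ZT8 mice were far below the lowest ZT20 mouse, and ZT8 mouse 2 was the highest of them. The difference was -3.13 (SE 0.42, adjusted p = 5.38e-06), an 8.76-fold lower level. Npas2, a relative of Clock, stood at 1.21, 1.49, 1.61 and 1.2 CPM at ZT8 and at 10.5, 6.61, 3.63 and 6.22 CPM at ZT20 (difference -2.28, SE 0.53, adjusted p = 0.0163). The groups did not overlap, but 4 of the 8 fits without 1 library missed the threshold, with the largest adjusted p of 0.0985 without ZT20 mouse 1. Clock itself did not pass (difference -0.76, SE 0.34, adjusted p = 0.246). Its ZT8 mice stood at 29.6 to 37.9 CPM and its ZT20 mice at 38.1 to 94.6 CPM.

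The E-box repressors went both ways, with 2 higher, 1 lower and 5 not past the threshold. Per3, a period gene on mm9 chromosome 4 between 150377761 and 150418774, stood at 99.1, 64.4, 108 and 89.6 CPM at ZT8 and at 6.07, 11.7, 6.71 and 8.37 CPM at ZT20. Every ZT8 mouse was above every ZT20 mouse, and the difference of 3.46 (SE 0.37, adjusted p = 6.55e-08) was an 11-fold higher level. Cry1, whose protein blocks CLOCK and BMAL1, went the other way. It stood at 7.74, 12, 9.37 and 8.25 CPM at ZT8 and at 42, 43.4, 63.2 and 42.7 CPM at ZT20 (difference -2.36, SE 0.27, adjusted p = 3.49e-07). The ZT20 mice were close to each other except mouse 3. Bhlhe41 (DEC2), a repressor that competes for E-boxes, was barely expressed, at 0.355, 0.249, 1.54 and 4.12 CPM at ZT8 and 0.394, 0.3, 0.231 and 0.154 CPM at ZT20. Its groups overlapped, and its difference of 2.5 (SE 0.67, adjusted p = 0.0379) missed the threshold in 6 of the 8 fits without 1 library. Its largest adjusted p was 0.334, without ZT8 mouse 4.

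The other period and cryptochrome genes did not pass. Per2 stood at 47.2, 52.1, 50.4 and 55.9 CPM at ZT8 and at 40, 16.9, 29.9 and 17.4 CPM at ZT20. The groups did not overlap, and the difference of 0.98 (SE 0.29) had an adjusted p of 0.0622; Per2 passed in the fit without ZT20 mouse 1. Gm129, also called Ciart, which encodes a further repressor of CLOCK and BMAL1, stood at 17.5, 4.82, 24.3 and 31 CPM at ZT8 and at 7.02, 2.33, 4.01 and 2.61 CPM at ZT20. ZT8 mouse 2 fell inside the ZT20 range, and the difference of 2.28 (SE 0.67) had an adjusted p of 0.0584. With body weight as a covariate Gm129 passed, with a difference of 3.71 (adjusted p = 0.0242). Per1, Cry2 and Bhlhe40 had differences of 0.23, -0.02 and 0.30, each smaller than its SE (0.60, 0.33 and 0.38), and the direction of Cry2 turned with the scaling (0.00 with total counts).

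In the receptor loop, both REV-ERB genes were higher at ZT8. Nr1d1 (REV-ERBα) stood at 39.7, 11.8, 35.7 and 50.2 CPM at ZT8 and at 4.42, 2.18, 1.39 and 4.45 CPM at ZT20. The groups did not overlap, and the difference was 3.46 (SE 0.90, adjusted p = 0.0302). In 7 of the 8 fits without 1 library Nr1d1 missed the threshold, with the largest adjusted p of 0.0989 without ZT20 mouse 1. Nr1d2 (REV-ERBβ) stood at 139, 114, 170 and 216 CPM at ZT8 and at 18.9, 31.8, 55.4 and 22.1 CPM at ZT20 (difference 2.32, SE 0.38, adjusted p = 0.000247). It passed in every such fit. Rora had a difference of 0.10 (SE 0.33, adjusted p = 0.891).

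Of the D-box factors, Dbp and Tef were higher at ZT8 and Nfil3 was lower. Dbp, on mm9 chromosome 7 between 52960458 and 52965525, had the largest positive difference of the genes named here. It stood at 103, 35, 116 and 169 CPM at ZT8 and at 5.68, 6.23, 4.01 and 4.53 CPM at ZT20, a difference of 4.37 (SE 0.58, adjusted p = 4.95e-06) or 20.6-fold. The lowest ZT8 mouse, mouse 2, was above every ZT20 mouse. Tef stood at 343, 236, 345 and 465 CPM at ZT8 and at 126, 121, 125 and 109 CPM at ZT20 (difference 1.53, SE 0.20, adjusted p = 4.54e-06). Again mouse 2 was the lowest ZT8 mouse and stood above all ZT20 mice. Nfil3, which represses the targets of DBP and TEF, stood at 10.4, 26.6, 9.45 and 15.8 CPM at ZT8 and at 65.7, 32.1, 41.9 and 46.4 CPM at ZT20. Its groups did not overlap, and the difference of -1.58 (SE 0.43, adjusted p = 0.0418) missed the threshold in 6 of the 8 fits without 1 library. Its largest adjusted p was 0.195, without ZT20 mouse 1. Hlf did not pass (difference 0.36, SE 0.17, adjusted p = 0.27), with overlapping groups.

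ZT8 mouse 2, the heaviest mouse, had the highest ZT8 values of Arntl, Cry1 and Nfil3 and the lowest of Per3, Nr1d1, Nr1d2, Dbp, Tef and Gm129. Its part in the results was not tested beyond leaving it out. Without it the clock genes past the threshold numbered 7 higher and 5 lower, Gm129 being the gene added.

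The other KO times place ZT8 and ZT20 on the daily profile. Means of the 4 KO mice (3 at ZT16) were highest at ZT8 among the 6 times for Per3, Nr1d2, Dbp, Tef, Hlf, Gm129 and Bhlhe41. Dbp had means of 2.73 CPM at ZT0, 60.3 CPM at ZT4 and 106 ± 55.1 CPM (SD, n = 4) at ZT8. It then stood at 31.3 CPM (ZT12), 8.78 CPM (ZT16) and 5.11 ± 1.02 CPM (ZT20). Nr1d1 was highest at ZT4 (37.4 CPM) and lowest at ZT20 (3.11 CPM). Arntl was lowest at ZT8 (3.67 ± 2.14 CPM) and its ZT20 mean of 32.1 ± 3.49 CPM was close to its highest, 32.4 at ZT0. Cry1 was highest at ZT16, with a mean of 55.6 CPM. The genes that did not pass include some whose extremes fall at other times, such as Per2, with its highest mean of 71 CPM at ZT12 and its lowest of 8.17 at ZT0.

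**Figure D3:**
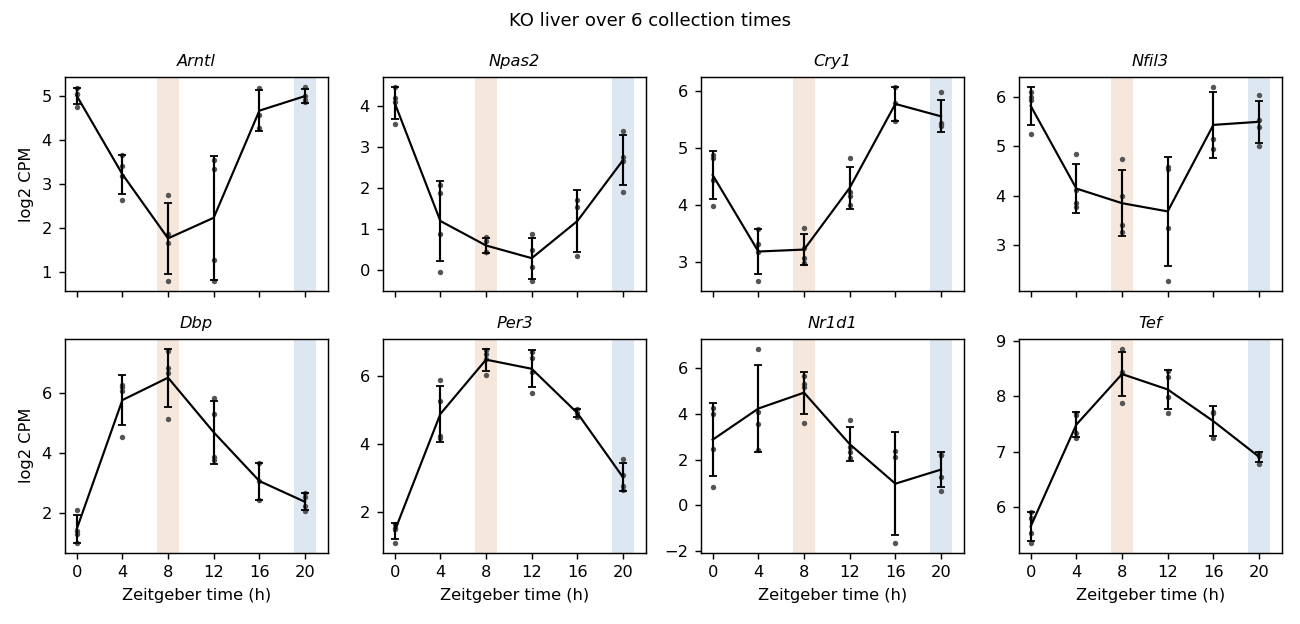
Levels of 8 clock genes in KO liver at the 6 collection times as log2 CPM; points are mice, the line joins the means and bars are SD (4 mice a time, 3 at ZT16), with ZT8 shaded orange and ZT20 blue. Arntl is lowest at ZT8 and near its highest level at ZT20, while Dbp, Per3 and Tef are highest at ZT8.

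The genes of largest difference included clock genes and genes of other kinds. The 15 lower genes of largest difference and a mean log2 CPM of 2 or more included Lcn2, Cdkn1a, Cyp2b10, Arntl, Hspb1, Tubb2a, Lrfn3, Pdk4, Cry1, Rnf144a, Tor3a, Chka, Insig2 and Plin5. The 15 higher ones included Dbp, Per3, Nr1d1, Gbp10, Nr1d2, Klhdc7a, A930033H14Rik, Serpina7, D0H4S114, Tnfrsf19, B3galt1, Upp2, Pparg and Hsd3b2. In 27 of the 30 the mice did not overlap, the exceptions being Hspb1, B3galt1 and Gbp10. The share was 87.6% of all 298 genes past the threshold, and these 30 were picked by their difference in the same mice. In every fit without 1 library, 10 of the 15 lower and 7 of the 15 higher genes passed. With body weight in the model, 12 of the 15 lower genes passed but 5 of the 15 higher ones. Some higher genes that did not pass kept their difference, such as Nr1d1 (3.46 without body weight, 3.57 with it). In others it fell, such as B3galt1 (2.0 and 0.91).

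**Figure D4:**
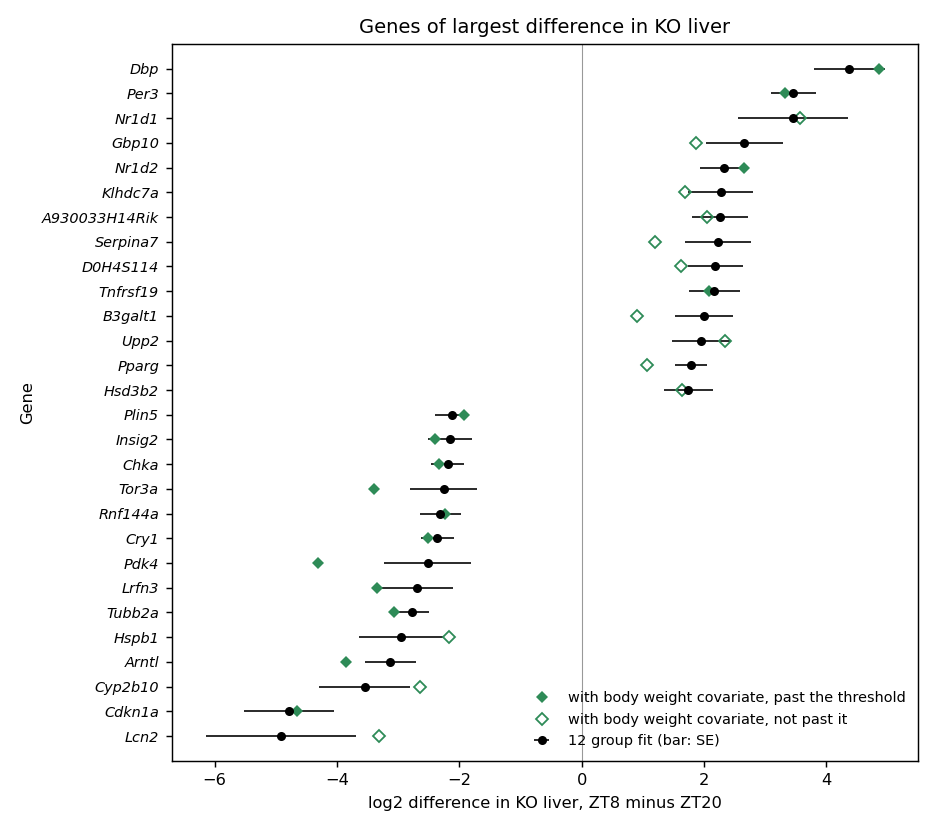
Log2 differences of ZT8 minus ZT20 in KO liver for genes of largest difference; black points with bars are estimates with SE, and green diamonds are the estimates with body weight as a covariate, filled where still past the threshold. More of the lower than of the higher genes have filled diamonds. Open ones include Pparg, Serpina7 and B3galt1, whose differences shrank, and Nr1d1 and Upp2, whose differences did not.

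Cdkn1a, which encodes the cell cycle inhibitor p21, stood at 4.19, 4.4, 3.51 and 2.7 CPM at ZT8 and at 224, 47.7, 58.4 and 81.6 CPM at ZT20. The ZT8 mice lay within a narrow range far below the lowest ZT20 mouse, and the difference was -4.79 (SE 0.74, adjusted p = 7.4e-05). Without ZT20 mouse 1, the highest, Cdkn1a still passed. It was the only one of 14 tested cell cycle genes past the threshold, and proliferation genes such as Mki67 (difference -1.66, adjusted p = 0.18) did not pass. Tubb2a, a β-tubulin gene on mm9 chromosome 13 between 34166170 and 34169877, had the smallest adjusted p of all the genes named here. It stood at 14.8, 32.5, 19.1 and 26.1 CPM at ZT8 and at 161, 131, 179 and 162 CPM at ZT20 (difference -2.77, SE 0.28, adjusted p = 4.01e-08).

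Insig2, Plin5 and Chka were among the lower genes. Insig2, whose protein holds the cholesterol regulator SREBP in the endoplasmic reticulum, stood at 210, 303, 205 and 159 CPM at ZT8 and at 933, 826, 1170 and 978 CPM at ZT20 (difference -2.16, SE 0.36, adjusted p = 0.000334). Plin5, a coat protein of lipid droplets, stood at 99.4, 79, 70.6 and 82.3 CPM against 512, 211, 412 and 304 CPM (difference -2.12, SE 0.28, adjusted p = 3.76e-06). Neither gene's groups overlapped. Chka, the first enzyme of phosphatidylcholine synthesis from choline, was the least variable of these, at 25.1, 30, 28.9 and 29.1 CPM at ZT8 and 138, 115, 142 and 121 CPM at ZT20 (difference -2.19, SE 0.27, adjusted p = 1.09e-06). All 3 passed in each fit without 1 library and with body weight as a covariate.

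Pdk4, a kinase that shuts pyruvate off from oxidation during fasting, stood at 22.7, 86.9, 11.4 and 21.1 CPM at ZT8 and at 164, 106, 346 and 196 CPM at ZT20. The groups did not overlap, with ZT8 mouse 2 apart from the other ZT8 mice. Its difference of -2.52 (SE 0.71, adjusted p = 0.0479) missed the threshold in 6 of the 8 fits without 1 library, with the largest adjusted p of 0.184 without ZT8 mouse 3.

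Among the higher genes, Pparg, the receptor that drives fat storage and is low in normal liver, stood at 14.9, 33.1, 18.2 and 23.7 CPM at ZT8 and at 5.36, 8.94, 4.78 and 7.14 CPM at ZT20. The groups did not overlap, mouse 2 being the highest at each time, and the difference was 1.78 (SE 0.26, adjusted p = 2.27e-05). Pparg passed in each fit without 1 library, but with body weight as a covariate the difference was 1.07 (adjusted p = 0.0945). Serpina7, which encodes thyroxine-binding globulin, stood at 31.9, 188, 44.6 and 96.3 CPM against 20.7, 16.5, 13.7 and 26 CPM (difference 2.23, SE 0.54, adjusted p = 0.0199). Its highest value was again in ZT8 mouse 2, without which the adjusted p was 0.126, and with body weight as a covariate the difference was 1.19 (adjusted p = 0.438). Upp2, a liver uridine phosphorylase, stood at 378, 422, 729 and 372 CPM against 55, 97, 224 and 115 CPM (difference 1.95, SE 0.47, adjusted p = 0.0186), with no overlap. It had an adjusted p of 0.112 without ZT20 mouse 1. With body weight as a covariate its difference was 2.34 (adjusted p = 0.0673).

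Lcn2 and Hspb1 rested on ZT20 mouse 1. Lcn2, an acute phase protein that binds iron carriers of bacteria, stood at 18.1, 9.3, 8.42 and 6.3 CPM at ZT8 and at 1170, 55.6, 27.2 and 22 CPM at ZT20. The groups did not overlap, but its difference of -4.92 (SE 1.23, adjusted p = 0.0245) became -1.73 (adjusted p = 0.608) without that mouse. Hspb1, a small heat shock protein gene, stood at 6.75, 3.16, 1.54 and 10.3 CPM against 125, 9.91, 14.3 and 19.1 CPM. Its groups overlapped, and its difference of -2.95 (SE 0.69, adjusted p = 0.0161) became -1.41 (adjusted p = 0.393) without it.

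Lists of further clock genes were read against 2.18% of all genes past the threshold and a median difference of -0.03 over them. None of the 10 kinases and ubiquitin ligases that set the stability of clock proteins passed (median 0.10). Among them Prkaa2, a subunit of the energy sensor AMPK, had the smallest p (difference 0.57, SE 0.24, adjusted p = 0.203). Of 16 clock output genes 4 were higher and 2 lower at ZT8 (median 0.25). The 4 higher ones were Upp2, Cyp2a5, Gys2 and Nr1i3. Nr1i3, the drug-sensing receptor CAR, had a difference of 0.82 (SE 0.22, adjusted p = 0.0355), and Gys2, liver glycogen synthase, a difference of 0.85 (SE 0.19, adjusted p = 0.0114). The 2 lower ones were Slc45a3 (difference -1.49, SE 0.28, adjusted p = 0.00175) and Ppp1r3c (-1.55, SE 0.32, adjusted p = 0.00553), which encodes a protein that directs a phosphatase to glycogen. Without ZT20 mouse 1 the list had 0 higher and 2 lower genes, and both lower genes passed in each fit without 1 library. With body weight as a covariate Slc45a3 alone of the 6 passed (difference -1.95, adjusted p = 0.00553). Ppp1r3c then had a difference of -1.68 (adjusted p = 0.0574) and Upp2 of 2.34 (adjusted p = 0.0673). Gys2 had a difference of 0.86 (adjusted p = 0.138) and Cyp2a5 of 0.87 (adjusted p = 0.353). The difference of Nr1i3 fell to 0.41 (adjusted p = 0.481).

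In carbohydrate metabolism, 2 of 14 genes of glycolysis and glycogen were higher and 1 lower (median 0.08). Slc2a2, the glucose transporter GLUT2, stood at 387, 324, 267 and 328 CPM at ZT8 and at 90.6, 258, 147 and 135 CPM at ZT20. Its groups did not overlap (difference 1.05, SE 0.27, adjusted p = 0.0302), but it missed the threshold in 7 of the 8 fits without 1 library. Its largest adjusted p was 0.193, without ZT20 mouse 1. With body weight as a covariate its difference was 0.91 (adjusted p = 0.27). Gys2 was the other higher gene, at 219 to 325 CPM against 145 to 161 CPM, and Ppp1r3c the lower one, at 43.7 to 85.8 CPM against 134 to 240 CPM. None of 17 genes of gluconeogenesis and amino acid catabolism passed (median -0.20). Tat, tyrosine aminotransferase, had the smallest p of them (difference -1.31, SE 0.48, adjusted p = 0.14). G6pc passed in the fit without ZT8 mouse 2.

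In lipid metabolism few listed genes passed. None of 24 genes of cholesterol synthesis and uptake did (median 0.20), and Sc5d had the smallest p (difference 0.87, SE 0.26, adjusted p = 0.0622). Of 22 genes of fatty acid and triglyceride synthesis 1 was lower and 0 higher (median -0.06). That gene was Agpat2, which makes phosphatidic acid, with a difference of -1.0 (SE 0.25, adjusted p = 0.0227). It missed the threshold in 5 of the 8 fits without 1 library, with the largest adjusted p of 0.104 without ZT8 mouse 4. Of 26 PPARα targets and ketogenesis genes 1 was lower, Pdk4, and 0 were higher (median -0.14). The fasting gene Cpt1a had a difference of 0.10 (adjusted p = 0.873) in these fasted mice. Without ZT8 mouse 2 the list had 3 lower genes, Pdk4, Angptl4 and Plin2. None of 17 bile acid genes passed (median 0.26). Cyp7a1, the rate-limiting enzyme of bile acid synthesis, stood at 301, 316, 733 and 31.9 CPM at ZT8 and at 12.9, 183, 14.3 and 59.3 CPM at ZT20. ZT8 mouse 4 lay inside the ZT20 range (difference 2.36, SE 0.73, adjusted p = 0.0747).

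Of 21 genes of xenobiotic metabolism 3 were higher and 1 was lower (median 0.03). Cyp2b10, a drug-metabolizing enzyme that CAR induces, was lower at ZT8, at 7.67, 11.7, 7.32 and 6.3 CPM against 171, 65.5, 99.7 and 51.5 CPM (difference -3.55, SE 0.74, adjusted p = 0.00574). The groups were far apart, and Cyp2b10 passed in each fit without 1 library but not with body weight as a covariate (difference -2.65, adjusted p = 0.281). The 3 higher genes included Nr1i3 itself, at 1590 to 2010 CPM against 881 to 1160 CPM. Cyp2a5, a coumarin hydroxylase, stood at 2380 to 2940 CPM against 746 to 1440 CPM (difference 1.19, SE 0.31, adjusted p = 0.0326). Ahr, the aryl hydrocarbon receptor, stood at 49.4 to 109 CPM against 17.8 to 48.7 CPM (difference 1.18, SE 0.30, adjusted p = 0.0283). With body weight as a covariate the difference of Ahr was again 1.18 (adjusted p = 0.189). Without ZT20 mouse 1 the list had 0 higher genes and 1 lower, Cyp2b10. Of the 8 fits without 1 library, Cyp2a5 missed the threshold in 7, Nr1i3 in 5 and Ahr in 4.

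The stress and growth lists held few calls. Of 18 heat shock and temperature responsive genes Rbm3, a cold-induced RNA-binding protein gene, was higher (difference 1.01, SE 0.28, adjusted p = 0.0442) and Hspb1 lower (median -0.43). Of 14 glucocorticoid responsive genes Fkbp5 alone was lower (difference -1.68, SE 0.44, adjusted p = 0.0306; median -0.69). With body weight as a covariate the difference of Fkbp5 was -0.68 (adjusted p = 0.548). Rbm3 (difference 1.05, adjusted p = 0.228), Hspb1 (-2.17, adjusted p = 0.311) and Lcn2 (-3.32, adjusted p = 0.385) did not pass with it either. Of 18 acute phase genes Lcn2 alone was lower (median -0.76), and Saa1 stood at 21.1 to 38.8 CPM in the ZT8 mice, at 2340 CPM in ZT20 mouse 1 and at 30.3 to 161 CPM in the other ZT20 mice. These 3 lists had 0 genes past the threshold without ZT20 mouse 1, and their medians were then -0.17, -0.33 and -0.34. They also had 0 without ZT8 mouse 2, with medians of -0.41, -0.98 and -0.83. Rbm3 missed the threshold in 7 of the 8 fits without 1 library, and Fkbp5 and Lcn2 in 5 each. None passed of 20 unfolded protein response genes, 13 immediate early genes, 10 NRF2 genes, 15 ribosome biogenesis genes, 9 autophagy genes and 14 insulin and growth hormone responsive genes. Their medians lay between -0.27 and -0.11.

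Markers of other cell types were read in the same way; in bulk liver, fewer cells of a type and less RNA per cell cannot be told apart. Neutrophil markers held 2 lower genes of 9 tested, Mpo and Elane, which encode proteins of neutrophil granules. Mpo stood at 0.071, 0, 0 and 0 CPM at ZT8 and at 34.9, 0.0751, 0 and 0.461 CPM at ZT20, and Elane at 0, 0.083, 0.0732 and 0 CPM against 17, 0.15, 0 and 0.23 CPM. ZT20 mouse 1 alone carried both. Without it none of the 9 passed (median -1.53), and without ZT8 mouse 2 none passed either (median -6.98). None of the tested markers of Kupffer cells, lymphocytes, stellate cells, endothelium, cholangiocytes, adipocytes, pancreas, red cells or hepatocytes passed. Only 3 of the 8 adipocyte and 2 of the 13 pancreas markers could be tested. For cholangiocytes 5 of 6 and for lymphocytes 10 of 11 could be. The 9 sinusoidal endothelium markers summed to 158 to 289 CPM in the ZT8 mice and 290 to 320 CPM in the ZT20 mice, without overlap though the ranges almost meet. All 9 had differences below 0, against 7182 of all 13646 tested genes. Their median difference was -0.67 in KO and -0.71 in WT. The 8 adipocyte markers summed to 69.5 to 93.7 CPM against 122 to 184 CPM, also without overlap, with Lep at 0 in all 8 mice. The part of these sums in the genes above was not tested.

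The same comparison in WT liver, on mice that share no animal with the KO mice, gave 262 genes past the threshold (1.92%), 121 higher (0.887%) and 141 lower (1.03%). KO and WT mice of the same number had identical ages, so both comparisons carried the same age gap between times. With total count scaling the WT split was 164 higher and 126 lower. Past the threshold in both genotypes were 123 genes, 41.3% of the KO calls and 46.9% of the WT calls, all in the same direction. Of the 298 KO calls 292 (98%) had the same sign in WT. The share of equal signs over all tested genes was not counted, so 98% has no yardstick here. For the clock genes 10 of 11 KO calls were also WT calls in the same direction. Of the 30 genes of largest difference 13 of the 15 lower and 6 of the 15 higher ones also passed in WT.

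Whether the difference between times itself differed between genotypes was tested as the KO difference minus the WT difference. No gene passed in edgeR's test (0%), with 166 genes at an unadjusted p under 0.05, and DESeq2 called 1 gene. That gene, Camp, encodes a neutrophil peptide and was looked at after its call was seen. It had up to 32.4 CPM in the KO ZT20 mice and 0 in all KO ZT8 mice. The WT mice at ZT8 and ZT20 had at most 3.37 CPM. Camp is 1 of the 10 neutrophil markers, which summed to 9.26 to 15.7 CPM in KO ZT20 mice 2 to 4. The 32.4 CPM was thus in ZT20 mouse 1, and DESeq2 was not run without that library. The smallest p in edgeR's test was that of Npas2. It stood at 0, 0.157, 0.0704 and 0.0696 CPM in the WT mice at ZT8 and at 11.2, 0.84, 5.56 and 4.73 CPM at ZT20, so the WT values at ZT8 were below every KO value. The KO difference of -2.28 and the WT difference of -6.08 differed by 3.80 (SE 0.99, unadjusted p = 0.000441, adjusted p = 1).

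Pparg had a difference of 1.78 in KO and 0.82 in WT (adjusted p = 0.0757), but the difference between these, 0.95 (SE 0.35, unadjusted p = 0.0105), had an adjusted p of 1. Its WT mice stood at 16.6, 12.4, 14.9 and 12.5 CPM at ZT8 and at 7.96, 10.1, 6.36 and 7.45 CPM at ZT20. The WT groups did not overlap either. Upp2 (1.95 in KO, 0.80 in WT) and B3galt1, a galactosyltransferase gene (2.0 and 0.50), likewise had an adjusted p of 1 for the difference between genotypes. For Dbp the differences were 4.37 and 4.29, and for Arntl -3.13 and -3.91. These tests do not show that the genotypes act alike, since the approximate SE of such a difference was 0.73 for Dbp and 0.57 for Arntl.

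**Figure D5:**
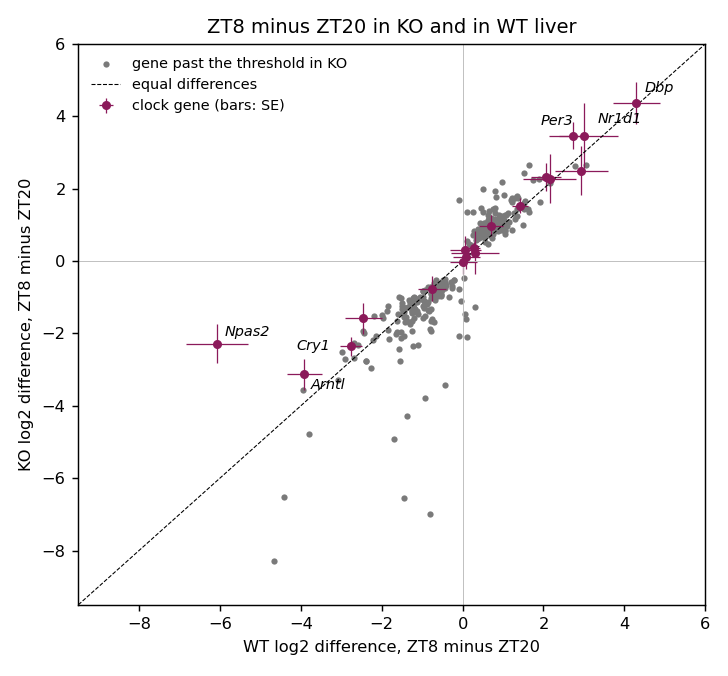
Log2 difference of ZT8 minus ZT20 in WT liver (horizontal) and in KO liver (vertical) for the 298 genes past the threshold in KO (grey) and clock genes (purple, bars SE); the dashed line marks equal differences. Of the 298 genes 292 have the same sign in both genotypes, and Npas2, at -6.08 in WT and -2.28 in KO, lies farthest from the line among the clock genes.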

How the data were processed

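Poly(A) RNA of mouse liver was sequenced from stranded TruSeq libraries amplified in 13 PCR cycles and built over several days, per the labels' protocols. The labels do not assign libraries to days. The submitters' processing notes name STAR 2.4.1d, CASAVA without a version, and genome build mm9. The deposited file holds whole-number read counts per gene for 22354 genes, made by the authors and, per the file's name, on the sense strand. The counter, the annotation release and any equalising of depth are not given in the sources used here. Totals without Alb were 12.84e6 to 13.01e6 in all 48 libraries, a narrow range. The Alb values were whole multiples of 1311.6 (within 0.0009 of a step, 5.7% to 11.2% of counts in the 8 libraries), so Alb was left out of library sizes and tests. More than 1 line carried the same symbol for 95 symbols, and such lines were kept apart by identifier.

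Tests were run with edgeR 4.0.16 under R 4.3.3: filterByExpr (13646 genes kept), TMM scaling, and a quasi-likelihood model of 12 group means (genotype by time) over all 48 libraries with 36 residual degrees of freedom. The model gave ZT8 minus ZT20 in KO, in WT, and the difference between these. Benjamini-Hochberg adjustment ran over all genes tested, with a threshold of 0.05. The procedure was tested on simulated counts. CPM use TMM-scaled library sizes. Log2 CPM in plots has a prior count of 2. The GC slope of a library is the slope of its deviation from the mean log2 CPM on the GC content of transcripts (GENCODE vM21), known for 97.6% of tested genes. Body weight and age were compared with exact permutation tests. Replicates are separate mice. The p-values of edgeR's test weigh a difference against the spread between mice within groups. That spread was estimated over all 12 groups, not from the 8 KO mice alone. Alternatives were DESeq2 1.42.0, other scalings, no filter, the 8 libraries alone, covariates, a replicate block and leaving out each library. List counts without ZT20 mouse 1 and without ZT8 mouse 2 were added after the data were seen.

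Genes were named by rule: all members of 4 clock lists; the 15 higher and 15 lower genes of largest difference among those that passed and had a mean log2 CPM of 2 or more; the members of each list with the smallest p (up to 4 past the threshold, or 1 where none passed); and the gene with the smallest p for the difference between genotypes. Other genes named were picked from the lists, or after their values were seen, to show members that did not pass. A few genes of these lists are counted in the totals but not reported here. The members and the lists were chosen with earlier results of these data known.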

Additional observations from a re-analysis of the deposited data

Results flagged for a closer look

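A sample far from the other 3 of its group was looked for in 148 sets of 4 values (Dixon's test at 95%), and 13 sets had one. Chance gives about 1 in 20 for sets not picked by their values. Many of these genes were named for their values in the same mice, so that rate is no yardstick here. In the ZT20 group, mouse 1 stood far above the others for Lcn2 (1170 CPM against 22 to 55.6), Hspb1 (125 against 9.91 to 19.1), Mpo (34.9 against 0 to 0.461), Elane (17 against 0 to 0.23) and Cidec, a lipid droplet gene (56.3 against 10.5 to 17). These 5 flags fall in the mouse whose neutrophil and acute phase sums were the highest. They are not separate from those sums, since Mpo and Elane are neutrophil markers and Lcn2 an acute phase gene. Mpo, Elane, Lcn2 and Hspb1 were also named because they passed, and without this mouse they did not. ZT20 mouse 3 was high for Cry1 (63.2 CPM against 42 to 43.4).

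In the ZT8 group, mouse 2 was the heaviest (34.5 g against 25.5 to 26 g). It was also far above the others for Pdk4 (86.9 CPM against 11.4 to 22.7) and Alas2, the red cell enzyme of heme synthesis (31 CPM against 9.16 to 12.5). ZT8 mouse 3 was high for Upp2 (729 CPM against 372 to 422). ZT8 mouse 4 was high for Tnfrsf19 (18.6 CPM against 12.3 to 13.1) and for the lymphocyte gene Nkg7 (0.975 CPM against 0.355 to 0.439). ZT8 mouse 1 was the only ZT8 mouse with any Mpo, at 0.071 CPM.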

How the results depend on the processing

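The 298 KO calls became 93 with the 8 KO libraries alone, 525 with DESeq2, 182 with no filter on low counts, 85 with body weight as a covariate and 559 with the GC slope as a covariate (282 of the 298 kept), and lay between 65 and 376 when 1 library was left out. The 262 WT calls became 466 with DESeq2, 174 with no filter and 523 with the GC slope, and lay between 124 and 546 with 1 library left out. The genotype difference had 0 calls in each edgeR fit run and 1 with DESeq2. Relative log expression and total count scaling and the age covariate kept the KO count at 280, 267 and 312. Genes without overlap numbered 1475 to 1546 over the scalings and 1716 to 3609 with a library left out, where 3 mice face 4. With a mouse left out the weight difference was 5.62 to 8.62 g and the age difference 11.1 to 24.8 weeks. Of the 47 named genes past the threshold, 22 kept it with body weight as a covariate and 20 in every fit without 1 library. Among named genes the sign turned for Cry2 (0.00 with total counts, 0.42 with the GC slope), Alas2 (-0.67 with body weight) and Rora (-0.23 with the GC slope), and with a library left out for Cry2 (-0.18 to 0.06), Rora (-0.06 to 0.40), Per1 (-0.02 to 0.81) and Alas2 (-0.09 to 0.63); none of these passed, and the cause was not tested.

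The replicate number as a block in the fit of the 8 KO libraries gave 259 calls, 137 of them among the 298, and a Cry2 difference of 0.01. Same-numbered ZT8 and ZT20 mice deviated together with correlations of 0.22, 0.07, 0.26 and -0.05, and the labels tie no number to a shared litter, so the numbers were not taken as pairs. With the number within each time as a block over 16 libraries, the genotype difference had 0 calls.

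With 4 mice a group and 12.87e6 to 12.98e6 counts each, a gene that did not pass is not shown to be equal at ZT8 and ZT20.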

Other observations

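Some genes outside the clock and the listed pathways passed in every fit without 1 library; they were chosen here after their values were seen. Tars, the threonyl-tRNA synthetase, averaged 77 CPM at ZT8 and 180 CPM at ZT20 in KO (difference -1.23, SE 0.16) and had the same difference in WT (-1.23). Clpx, the unfolding subunit of a mitochondrial protease, averaged 149 and 588 CPM (difference -1.99, SE 0.29), against -2.43 in WT. Gldc, the glycine decarboxylase, averaged 53.4 and 209 CPM (-1.97, SE 0.33), and Slc16a1, the monocarboxylate transporter MCT1, 64.3 and 166 CPM (-1.37, SE 0.25). In the other direction, Nr3c2, the mineralocorticoid receptor, averaged 18.7 CPM at ZT8 and 5.94 at ZT20 (1.65, SE 0.30), and Stbd1, a glycogen-binding protein gene, 128 and 66.5 CPM (0.94, SE 0.19). All 6 were past the threshold in WT too, with the same sign.

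Marker sums of 2 ZT20 libraries lay apart from those of the other ZT20 mice. The 10 stellate cell and fibroblast markers summed to 634 CPM in ZT20 mouse 3, against 232 to 266 CPM in the other ZT20 mice and 192 to 435 CPM at ZT8. The 6 cholangiocyte markers summed to 25.5 CPM in ZT20 mouse 1, against 74.4 to 119 CPM in the other ZT20 mice. Red cell markers varied most among the ZT8 mice, from 42.8 to 335 CPM. The KO and WT mice with the same number at ZT8 and ZT20 had identical ages, and the labels do not say whether they were littermates.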
